A study of Homo sapiens with 6 samples.

Results

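The genes described are 7 components of the plasminogen activator system, chosen by name from the 61731 genes and loci of a table of TPM values, which give each transcript's share of a library corrected for its length. They are the activators PLAU (urokinase) and PLAT (tissue plasminogen activator), the urokinase receptor PLAUR, the serpin inhibitors SERPINE2 and SERPINB2, and the plasminogen-binding proteins ANXA2 and PLGRKT. All 7 reached the mean of 1 TPM required for testing. These genes do not cover every inhibitor of the activators, so no balance of activators against inhibitors was computed. RNA came from U87-MG, an established human glioblastoma cell line that the study infected with lentivirus. The compared groups are 3 libraries of negative control cells (NC, genotype labelled Normal control) and 3 libraries of cells labelled CHRM Knockdown (KD), meant to lower CHRM3, the muscarinic acetylcholine receptor M3. Which of the study's knockdown sequences the KD cells carried is not given, and separate cultures are not stated for the 3 libraries of a group, so the p-values measure only the spread between these libraries, which may be technical. The numbers of the KD libraries were taken as replicates, although they could also stand for different knockdown sequences.

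Plasminogen is an inactive precursor that is cut into plasmin, a protease that degrades fibrin and several matrix proteins and activates some matrix metalloproteinases. Urokinase does this mainly at the cell surface, held there by its receptor, while plasminogen itself docks on binding proteins of the membrane. Serpins end the activity by trapping the activators in inactive complexes, which clearance receptors take up. In glioblastoma the system is known for its part in the invasion of brain tissue.

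CHRM3 (ENSG00000133019) was 0.02, 0.09 and 0.13 TPM in NC replicates 1, 2 and 3 and 0.13, 0.01 and 0.02 TPM in KD replicates 1, 2 and 3. The groups overlapped, no difference was shown (permutation test, exact and two-sided, p = 0.80, with 0.10 the lowest that this design can give), and the values lie close to the rounding step of 0.01 TPM. Each direction below therefore compares libraries by their labels. In separate measurements, the paper reports an efficient knockdown of CHRM3 in U87-MG cells. Among markers of the labelled tumour, VIM was 6574.0 ± 77.2 TPM in NC and 7375.9 ± 115.0 TPM in KD (SD, n = 3 each). CD44 was 597.3 ± 21.6 and 473.5 ± 12.6 TPM, and NES 2.25 ± 0.281 and 3.58 ± 0.396 TPM. VIM and NES were higher in KD and CD44 was lower (limma adjusted p = 0.000416, 0.0151 and 0.000529). GFAP was 1.16 ± 0.219 TPM in NC, AQP4 was listed at 0 in every library, and S100B, SOX2 and OLIG2 stayed under 1 TPM on average. Of 9 leukocyte and endothelial markers, 8 were under 1 TPM in every library. The exception was CD68, a lysosomal protein that is not restricted to leukocytes, at 251.0 ± 2.2 TPM in NC and 172.7 ± 3.66 TPM in KD (SD, n = 3). It carries nearly all of the summed leukocyte list, which ranged from 249.1 to 253.6 TPM in NC and from 170.3 to 177.3 TPM in KD, while the endothelial list ranged from 0.04 to 0.25 TPM and from 0.05 to 0.08 TPM. The part of CD68 in the results was not tested.

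The members did not move together. SERPINB2 fell about 4.92-fold and PLAUR fell modestly, whereas PLAU, SERPINE2, ANXA2 and PLGRKT were higher in KD by ratios between 1.12 and 1.24, and PLAT was not called. At an adjusted p under 0.05 (limma, Benjamini-Hochberg over all genes tested), 2 members were lower and 4 were higher, 6 of 7 in all. Over the 13722 genes tested the same rule called 36.1%, with 24.0% lower and 12.1% higher, that is 3295 and 1660 genes. These shares depend on level: with a limit of 5 TPM they were 30.6% lower and 15.2% higher. The called members lay at the 83.1 percentile of mean level or above. The same 6 members had groups that did not overlap, as did 50.2% of the genes tested. In bulk RNA, fewer cells of a type and less RNA per cell cannot be told apart. The split of all genes was 2250 lower and 2306 higher after median-of-ratios scaling, and the members' counts stayed at 2 and 4. One member, SERPINB2, also reached an absolute log2 fold change of 1, a rule that called 1.20% of all genes lower and 1.87% in either direction. The median log2 fold change was 0.16 over the 7 members and -0.06 over all genes tested.

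**Figure D1:**
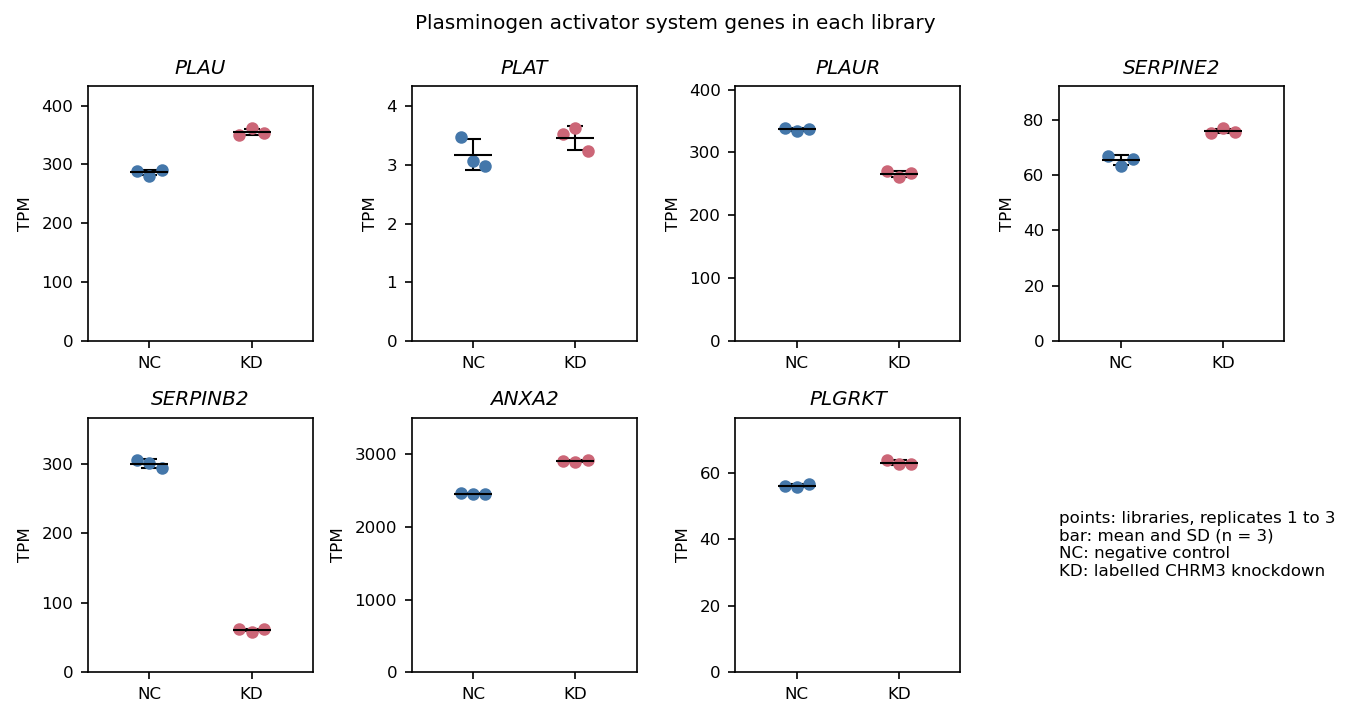
TPM (vertical axes, each from 0) of the 7 members in negative control (NC) and knockdown-labelled (KD) libraries, with points for the libraries and bars for the mean and SD (n = 3). SERPINB2 drops from 299.9 to 60.9 TPM, PLAUR from 336.7 to 265.9 TPM, PLAU rises from 286.3 to 355.1 TPM, and the PLAT groups overlap.

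PLAU (ENSG00000122861) is on chromosome 10, plus strand, from 73909177 to 73917497 (GRCh38, GENCODE 29) and encodes urokinase. It was 288.34, 280.56 and 290.03 TPM in NC replicates 1, 2 and 3, and 350.15, 361.13 and 354.12 TPM in KD replicates 1, 2 and 3. All KD libraries lay above all NC libraries, as for 17.4% of the genes tested. The mean rose from 286.3 ± 5.05 to 355.1 ± 5.56 TPM (SD, n = 3 each), and the log2 fold change was 0.31 on the log2(TPM + 1) scale (SE, its standard error, 0.0216, adjusted p = 0.000145 in limma). C10orf55 overlaps PLAU on the other strand, and the strand setting of the authors' counting is not given in the sources used here. C10orf55 was at most 0.59 TPM in any library, far below PLAU.

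PLAT (ENSG00000104368), on the minus strand of chromosome 8 from 42175233 to 42207724, encodes the activator that acts mainly on fibrin and, in the brain, in synaptic remodelling. Its level was 3.47, 3.06 and 2.98 TPM in NC replicates 1, 2 and 3, and 3.52, 3.62 and 3.23 TPM in KD replicates 1, 2 and 3. KD replicate 3 lay below NC replicate 1, so the groups overlapped. The log2 fold change was 0.10 with a 95% confidence interval from -0.12 to 0.31 (adjusted p = 0.437, limma), and an interval of this width holds the size of the rise of SERPINE2 or ANXA2. PLAT stood at the 20.3 percentile of mean level among the genes tested and PLAU at the 96.8 percentile. PLAU made up 98.9 ± 0.0872% of the activator transcripts (PLAU and PLAT TPM summed) in NC and 99.0 ± 0.052% in KD (SD, n = 3 each). That difference of 0.131 percentage points reached the smallest p an exact two-sided permutation test allows here (p = 0.10).

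PLAUR (ENSG00000011422) encodes the lipid-anchored receptor that holds urokinase at the cell surface and also binds vitronectin. The gene lies on the minus strand of chromosome 19 from 43646095 to 43670547. It was 338.02, 334.19 and 337.94 TPM in NC replicates 1, 2 and 3, and 270.57, 260.33 and 266.83 TPM in KD replicates 1, 2 and 3. No KD library reached any NC library, a pattern found for 32.8% of all genes tested in this direction. The mean fell from 336.7 ± 2.19 to 265.9 ± 5.18 TPM (SD, n = 3 each), and the log2 fold change was -0.34 (SE 0.0204, adjusted p = 8.13e-05 in limma).

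Receptor and ligand thus moved in opposite directions, and their ratio within a library is unchanged when the whole library is multiplied by a factor. Quantile normalization is not such a scaling, and no ratio was computed after it. There were 1.17, 1.19 and 1.17 PLAUR transcripts per PLAU transcript in NC replicates 1, 2 and 3, and 0.773, 0.721 and 0.754 in KD replicates 1, 2 and 3. In NC the receptor transcript was the more abundant of the pair, and in every KD library the ligand transcript was. The mean ratio was 1.18 ± 0.0134 in NC and 0.749 ± 0.0262 in KD (SD, n = 3 each), a difference of -0.427 (exact two-sided permutation test, p = 0.10, the smallest possible).

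SERPINB2 (ENSG00000197632) encodes plasminogen activator inhibitor type 2, a clade B serpin that inhibits urokinase and, less readily, tissue plasminogen activator, and that is largely kept inside the cell. Its place is chromosome 18, plus strand, from 63871692 to 63903890. Its level was 305.12, 301.36 and 293.30 TPM in NC replicates 1, 2 and 3, and 62.30, 58.73 and 61.75 TPM in KD replicates 1, 2 and 3. Every KD library was far below every NC library. The mean fell from 299.9 ± 6.04 to 60.9 ± 1.92 TPM (SD, n = 3 each), and the log2 fold change was -2.28 (SE 0.0307, adjusted p = 1.74e-07 in limma). Ordered by log2 fold change from the lowest, SERPINB2 was number 28 of the 13722 genes tested.

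SERPINE2 (ENSG00000135919) encodes protease nexin-1, a secreted serpin that inhibits thrombin, urokinase and plasmin and is made by glial cells. The gene is on the minus strand of chromosome 2 from 223975112 to 224039319. Its level was 66.75, 63.31 and 65.90 TPM in NC replicates 1, 2 and 3, and 75.17, 76.83 and 75.70 TPM in KD replicates 1, 2 and 3. All KD libraries were above all NC libraries, and the mean rose from 65.3 ± 1.79 to 75.9 ± 0.848 TPM (SD, n = 3 each). The log2 fold change was 0.21 (SE 0.0295, adjusted p = 0.00217 in limma). The serpins among the members therefore differed in direction, with the clade B gene lower and the clade E gene higher.

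ANXA2 (ENSG00000182718) encodes annexin A2, a membrane-binding protein that forms a heterotetramer with S100A10 and in this complex binds plasminogen and tissue plasminogen activator. It lies on the minus strand of chromosome 15 from 60347134 to 60402883. The level was 2461.02, 2454.98 and 2447.07 TPM in NC replicates 1, 2 and 3, and 2902.14, 2892.56 and 2916.77 TPM in KD replicates 1, 2 and 3. The KD libraries were all higher, with means of 2454.4 ± 7.0 and 2903.8 ± 12.2 TPM in NC and KD (SD, n = 3 each). The log2 fold change was 0.24 (SE 0.0103, adjusted p = 2.06e-05 in limma), and it was 0.11 after quantile normalization, which still passed the threshold. ANXA2 was number 52 of the tested genes by mean level. The processed pseudogenes ANXA2P1, ANXA2P2 and ANXA2P3 could share reads with ANXA2 and were at most 0.16 TPM in any library.

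S100A10 (ENSG00000197747), the partner subunit and the site of plasminogen binding by its terminal lysine, was 1005.01, 991.70 and 999.92 TPM in NC replicates 1, 2 and 3 and 1160.50, 1202.32 and 1224.72 TPM in KD replicates 1, 2 and 3. It rose by a log2 fold change of 0.26 (SE 0.0218, adjusted p = 0.000302 in limma), with no overlap between groups. S100A10 per ANXA2 was 0.407 ± 0.00262 in NC and 0.412 ± 0.0105 in KD (SD, n = 3 each). KD replicate 1, at 0.400, lay below all controls, and the other KD libraries lay above them, so no difference in this ratio was shown (difference 0.00483, exact two-sided permutation test, p = 0.50).

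PLGRKT (ENSG00000107020), on the minus strand of chromosome 9 from 5357973 to 5437878, encodes a transmembrane plasminogen receptor with a terminal lysine. Its level was 56.00, 55.60 and 56.70 TPM in NC replicates 1, 2 and 3 and 63.79, 62.48 and 62.58 TPM in KD replicates 1, 2 and 3. The groups did not overlap, with the KD libraries higher. The mean rose from 56.1 ± 0.557 to 62.9 ± 0.729 TPM (SD, n = 3 each), or on the log2 scale by 0.16 (SE 0.0255, adjusted p = 0.00358 in limma), the smallest of the called members.

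In the order of TPM, NC ran from ANXA2 through PLAUR, SERPINB2, PLAU, SERPINE2 and PLGRKT to PLAT. In KD the order was ANXA2, PLAU, PLAUR, SERPINE2, PLGRKT, SERPINB2 and PLAT. PLAU thus came after PLAUR and SERPINB2 in NC and before both in KD, while SERPINB2 dropped below SERPINE2 and PLGRKT. No neighbours in either order overlapped over the libraries, although the lowest SERPINB2 value in NC, 293.30 TPM, was 3.27 TPM above the highest PLAU value, 290.03 TPM. In KD the lowest PLGRKT value, 62.48 TPM, was only 0.18 TPM above the highest SERPINB2 value, 62.30 TPM.

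SERPINB2 sits among other clade B serpin genes, a cluster examined after its values were seen. The 10 SERPINB genes of chromosome 18 span 63476761 to 64019779, and 3 of them were expressed highly enough to be tested. SERPINB7, the upstream neighbour, fell from 25.6 ± 0.341 to 16.9 ± 0.591 TPM (SD, n = 3 each), and the log2 fold change was -0.57 (adjusted p = 0.000149, limma). SERPINB8, farther downstream, fell from 30.5 ± 0.757 to 26.0 ± 1.26 TPM (SD, n = 3 each), and the log2 fold change was -0.23 (adjusted p = 0.0101, limma). All 3 tested genes were called lower, as were 24.0% of all genes tested. In all 3 the KD libraries lay below the NC libraries, as for 32.8% of all genes tested. The other 7 genes did not exceed 1.23 TPM in any library. SERPINB10, which overlaps SERPINB2 on the same strand, was at most 0.43 TPM.

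Windows before the start sites of 6 members were searched because some members fell and others rose. The RefSeq table (GRCh38.p14) gave 8 windows of 250 bases before and 50 after a start site, PLAU and SERPINE2 having 2 each, and that of PLAT was not used here. Letters were searched on both strands. The AP-1 letters TGANTCA were found in the windows of SERPINB2, PLAUR and ANXA2, 3 of 8 windows, against 7.71% of the 35116 windows in the table. They began 102 bases before the start in SERPINB2, 186 bases in PLAUR and 127 in ANXA2. These include both members that fell and one that rose. The TATA letters TATAAA stood 30 bases before the start of SERPINB2 and 31 before that of ANXA2, and were in 11.5% of all windows. GC box letters GGGCGG, present in 45.0% of all windows, were found in those of ANXA2, PLGRKT and SERPINE2 and in the second window of PLAU, and in neither SERPINB2 nor PLAUR. ETS letters CCGGAAG (10.3% of all windows) were found in PLGRKT alone, NF-kB half-site letters GGGANTT (15.9%) in PLAUR alone, and the cyclic AMP element core TGACGTC (3.45%) in none. A match is a description of the letters and not a site of binding. Bases farther than 250 before a start site were not searched, so an absence holds for the window only.

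The 250 bases before the start of SERPINB2 (chr18:63887455-63887704, plus strand), PLAUR (chr19:43670170-43670419, minus strand) and ANXA2 (chr15:60397987-60398236, minus strand) are shown as the windows that hold AP-1 letters, and those of PLAU (chr10:73910882-73911131, plus strand), the window of its downstream start, as one that does not. All are from RefSeq, build GRCh38.p14, written 5′ to 3′, with the AP-1 and TATA letters in capitals.
SERPINB2: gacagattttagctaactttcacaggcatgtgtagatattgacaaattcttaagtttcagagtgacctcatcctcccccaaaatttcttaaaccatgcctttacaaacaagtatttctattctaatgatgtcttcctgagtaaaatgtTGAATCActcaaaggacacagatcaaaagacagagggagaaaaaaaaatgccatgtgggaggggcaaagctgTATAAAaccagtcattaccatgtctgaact
PLAUR: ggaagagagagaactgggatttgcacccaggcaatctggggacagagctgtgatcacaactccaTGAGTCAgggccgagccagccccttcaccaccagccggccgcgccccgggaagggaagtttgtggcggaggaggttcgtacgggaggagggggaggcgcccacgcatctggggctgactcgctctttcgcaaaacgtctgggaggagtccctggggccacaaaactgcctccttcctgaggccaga
ANXA2: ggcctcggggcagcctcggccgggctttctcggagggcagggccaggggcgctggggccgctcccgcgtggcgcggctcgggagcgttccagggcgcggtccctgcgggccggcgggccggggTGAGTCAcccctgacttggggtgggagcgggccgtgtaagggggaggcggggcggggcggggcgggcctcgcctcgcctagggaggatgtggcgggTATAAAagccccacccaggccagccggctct
PLAU: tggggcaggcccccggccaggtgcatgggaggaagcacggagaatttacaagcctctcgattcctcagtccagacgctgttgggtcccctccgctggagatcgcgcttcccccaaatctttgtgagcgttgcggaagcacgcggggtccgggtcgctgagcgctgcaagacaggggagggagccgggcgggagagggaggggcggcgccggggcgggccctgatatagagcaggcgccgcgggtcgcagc

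**Figure D2:**
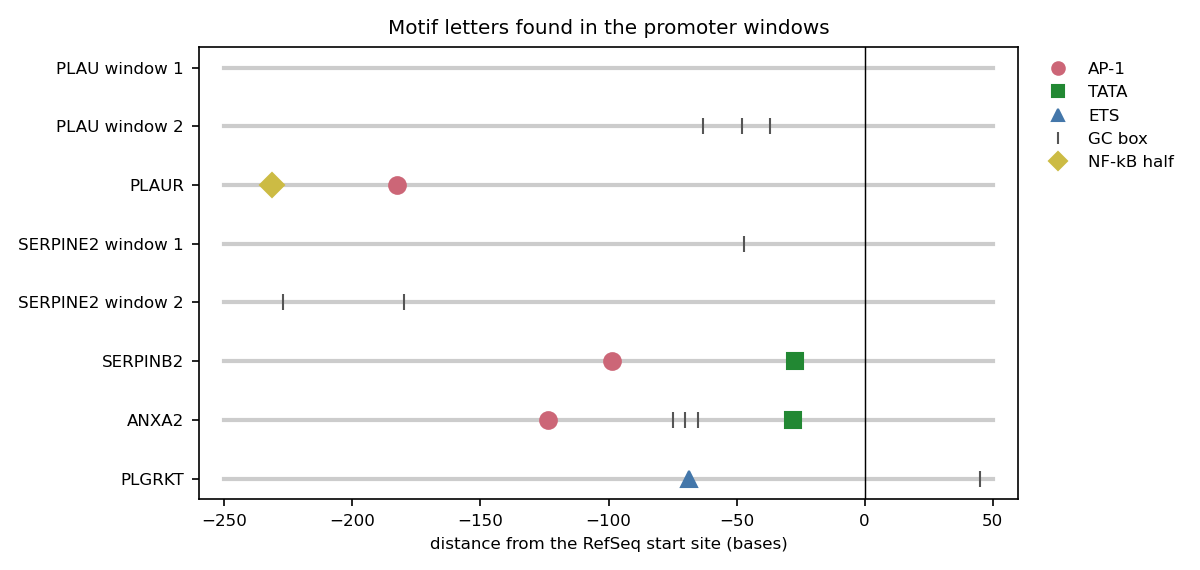
Positions of the motif letters found (horizontal axis, bases from the RefSeq start site at 0) in the 8 windows of 6 members, with 1 row per window and 1 symbol per motif. AP-1 letters appear in PLAUR, SERPINB2 and ANXA2, and TATA letters in SERPINB2 and ANXA2.

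Beyond the members, 58 other genes in 5 lists of the pathway were examined, of which 43 were tested. Of these, 13 were lower and 13 higher, 30.2% each way, against 24.0% and 12.1% of all genes. After median-of-ratios scaling 10 were lower and 16 higher, against 16.4% and 16.8% of all genes. After quantile normalization 9 were lower and 16 higher, against 16.2% and 16.3% of all genes. With a limit of 5 TPM, which drops some list genes, 12 were lower and 11 higher, against 30.6% and 15.2% of all genes. The shares thus depend on level, and the lists were chosen with earlier results of these data known. A selection of these genes follows by role, chosen as stated with the processing, and the other list genes are not named. The counts of each list below are to be read beside the shares of all genes, 24.0% lower and 12.1% higher. No list was tested as a set.

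Of 7 genes for plasminogen and its other binding sites, 6 were tested, with 3 higher, 1 lower and a median log2 fold change of 0.12, which was 0.06 with no limit on low values and -0.01 with a limit of 5 TPM. PLG, plasminogen itself, was at most 0.12 TPM in any library, below the limit for testing. ENO1, a glycolytic enzyme that also binds plasminogen at the cell surface, rose from 3374.8 ± 32.0 to 4114.3 ± 58.4 TPM (SD, n = 3 each), and the log2 fold change was 0.29 (adjusted p = 4.12e-05, limma), or 0.17 after quantile normalization, still past the threshold. KRT8, a keratin reported to bind plasminogen, rose from 2.27 ± 0.416 to 6.73 ± 0.881 TPM (SD, n = 3 each; limma adjusted p = 0.000766). CKAP4, a membrane protein that can bind tissue plasminogen activator, fell from 76.6 ± 1.36 to 61.0 ± 0.828 TPM (SD, n = 3 each; limma adjusted p = 0.000288). HMGB1 was 562.6 ± 7.88 and 559.0 ± 16.5 TPM (SD, n = 3 each; limma adjusted p = 0.802), and the sign of its difference changed with the scaling.

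Among 15 receptor partners, matrix ligands and clearance receptors, 13 were tested, with 5 lower, 3 higher and a median of -0.11, or -0.04 after either scaling. Of the integrins, adhesion receptors with which PLAUR associates, ITGA3 rose from 242.9 ± 0.959 to 397.9 ± 2.17 TPM (SD, n = 3 each), or on the log2 scale by 0.71 (adjusted p = 1.99e-06, limma), and ITGA5 rose by 0.29. ITGB3, which pairs with the alpha V chain to bind vitronectin, fell by 0.46 on the log2 scale (adjusted p = 0.000556, limma), while ITGB1, at 490.6 ± 8.93 and 504.2 ± 7.39 TPM, and ITGB5, at 111.8 ± 5.89 and 101.9 ± 7.39 TPM, were not called (SD, n = 3 each). ITGB1 was called higher after either scaling, and ITGB5 was called lower without KD replicate 2 (log2 fold change -0.19, adjusted p = 0.0417, limma). LRP1, the main receptor that takes up urokinase bound to its inhibitors, fell from 124.2 ± 2.63 to 89.6 ± 2.94 TPM (SD, n = 3 each), or by 0.47 on the log2 scale (adjusted p = 0.000143, limma). Its chaperone LRPAP1 had a log2 fold change of -0.19, which was -0.12 after median-of-ratios scaling and -0.11, with the call lost, after quantile normalization. VLDLR, a related uptake receptor, moved the other way, from 14.0 ± 0.614 to 22.9 ± 1.04 TPM (SD, n = 3 each; log2 fold change 0.67, limma adjusted p = 0.000221).

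Of 12 other inhibitors of plasmin and serine proteases, 5 were tested, and 3 were lower and 0 higher in limma, against 24.0% and 12.1% of all genes tested. The median of the list was -0.23, or -0.07 when low genes were kept and -0.09 when a mean of 5 TPM was required. TFPI2, a secreted Kunitz inhibitor of plasmin and other proteases, was 1438.39, 1406.59 and 1394.86 TPM in NC replicates 1, 2 and 3 and 321.94, 337.19 and 336.23 TPM in KD replicates 1, 2 and 3. Its fall, by a log2 fold change of -2.09 (SE 0.0236, adjusted p = 1.43e-07 in limma), was close in size to that of SERPINB2. SERPINI1, neuroserpin, an inhibitor of tissue plasminogen activator, fell from 5.39 ± 0.395 to 2.76 ± 0.341 TPM (SD, n = 3 each; log2 fold change -0.77, limma adjusted p = 0.00159). SERPINB8, described above, was the remaining one. The 2 tested genes that were not called were SERPINB6 and TFPI, with log2 fold changes of 0.06 and 0.11, and at an unadjusted p under 0.05 0 of the 5 was higher. Both became called as higher after median-of-ratios scaling and after quantile normalization. The summed TPM of this list went from 1517.7 to 1563.2 in NC to 445.7 to 459.4 in KD, most of it TFPI2.

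Among 12 substrates and neighbouring proteases, 7 were tested, with 3 higher, 2 lower and a median of 0.07. That median was 0.13 and 0.14 after median-of-ratios and quantile scaling, 0.01 with no limit on low values and 0.02 without KD replicate 1. HGF, a growth factor whose precursor urokinase can activate, was 2.71, 1.79 and 2.56 TPM in NC replicates 1, 2 and 3 and 8.09, 7.52 and 7.32 TPM in KD replicates 1, 2 and 3, a log2 fold change of 1.38 (SE 0.123, adjusted p = 0.000377 in limma). Its receptor MET rose by 0.20 and TGFB1, whose latent protein plasmin can release, by 0.19. F3, tissue factor, fell from 70.8 ± 0.495 to 58.9 ± 1.49 TPM (SD, n = 3 each; log2 fold change -0.26, limma adjusted p = 0.000834). CTSB, a cathepsin that can activate pro-urokinase, fell from 509.8 ± 4.67 to 482.4 ± 5.98 TPM (SD, n = 3 each), a call lost without the variance trend, after median-of-ratios scaling and after quantile normalization.

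All 12 transcription factors with a known part in the control of PLAU or PLAUR were tested, with 4 higher, 2 lower and a median of 0.00, or 0.07 and 0.08 after median-of-ratios and quantile scaling. FOS rose by 0.41, JUND by 0.37, FOSL1, the most abundant of them, by 0.18 and FOSL2 by 0.17 on the log2 scale (limma adjusted p = 0.000857, 0.00422, 0.0111 and 0.00815), where the call of FOSL1 was lost without variance moderation. RELA had a log2 fold change of -0.19 (adjusted p = 0.00934, limma), or -0.12 after median-of-ratios scaling, still past the threshold. ETS2 was the other gene called lower, at -0.13 and -0.05 after quantile normalization, and its call was lost in 10 of 17 alternative fits. JUN, at 205.1 ± 4.5 and 191.8 ± 7.63 TPM (SD, n = 3 each), was not called (adjusted p = 0.0696, limma), but was called lower with mitochondrial transcripts left out and without KD replicate 3 (adjusted p = 0.0425 and 0.0411, limma).

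**Figure D3:**
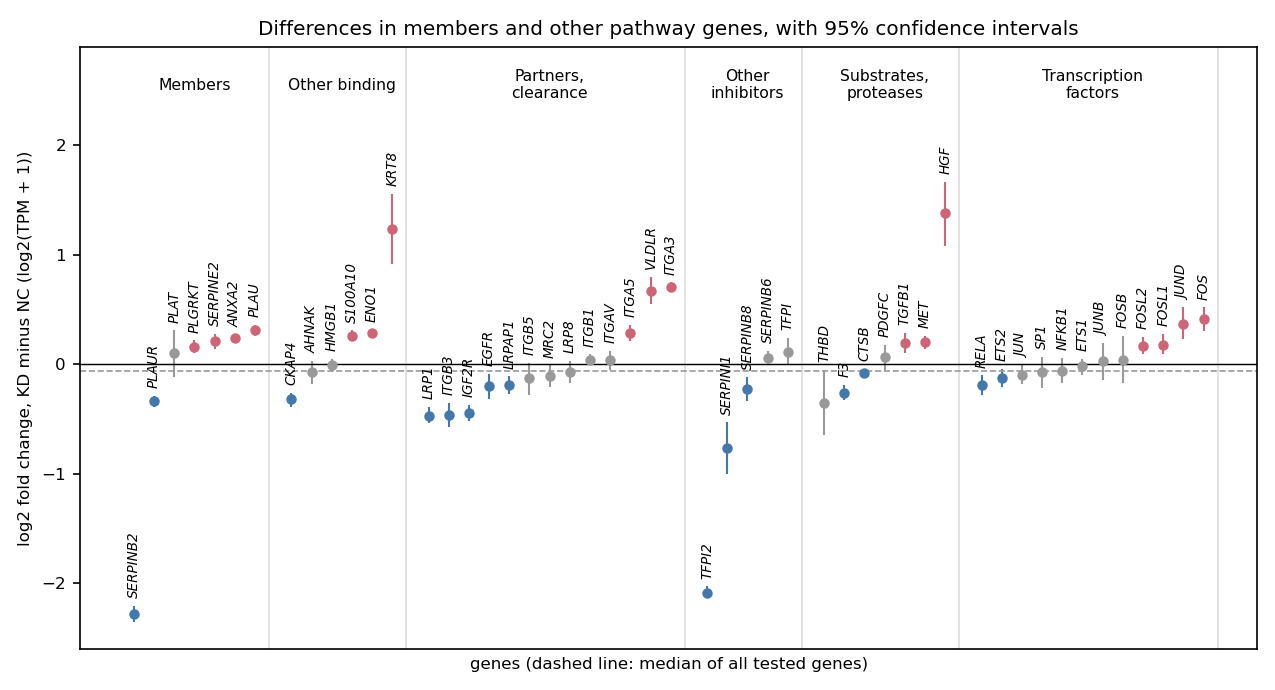
Log2 fold changes on the log2(TPM + 1) scale (vertical axis, KD minus NC) of the members and of the tested genes of the 5 lists, with 95% confidence intervals from limma, red for genes called higher, blue for genes called lower and grey for genes not called. SERPINB2 at -2.28 and TFPI2 at -2.09 lie lowest, HGF at 1.38 and KRT8 at 1.24 highest, and the dashed line is the median of all tested genes at -0.06.

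Over the 6 libraries, the genes of at least 10 TPM whose log2 level followed that of PLAU most closely were CRACR2B, PCOLCE, PRSS23, ERGIC1 and ARPC2, with Pearson's r between 0.9981 and 0.9983. These points fall in 2 groups, so the correlation mostly restates the difference between them, and 137 of 7646 genes had r over 0.99. PRSS23, a secreted serine protease, was 43.4 TPM in NC and 82.5 TPM in KD on average, and PCOLCE, an enhancer of procollagen processing, 123.7 and 148.0 TPM.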

How the data were processed

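RNA from 3 NC and 3 KD libraries of U87-MG was sequenced. The submitters' processing notes name fastp, RSEM and the build GRCh38.p13. Versions, the aligner and the annotation are not given in the sources used here. The sample labels and the paper name different extraction and library kits. The authors deposited TPM per gene and library, rounded to 2 decimals, and each library sums to 1000000 TPM within rounding. TPM is a share of each library and keeps no read depth, so depth is unknown and no counting error is given. Columns were matched to samples by title, with 0 columns left over. Symbols came from a table of gene names (61369 of 61541 Ensembl identifiers matched), and positions from GENCODE 29 (58366 matched).

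The test was that of limma 3.58.1 under R 4.3.3 (lmFit, then eBayes using a trend) on log2(TPM + 1). Its model held the group alone, and 13722 genes averaging 1 TPM or more entered, with Benjamini-Hochberg adjustment. Fold changes on this scale understate the change of low genes. A gene was called at an adjusted p under 0.05. The procedure was also run on simulated data with independent noise and shifts of 1 log2 unit. That run does not cover smaller changes, such as those of PLAU and PLAUR, or shifts shared by the libraries of a group. Ratios within a library were compared by an exact two-sided permutation test. The members and lists were chosen with earlier results of these data known. Named were the members, PLG, S100A10, CHRM3 and the markers, up to 4 called genes with the largest change per list, list genes of at least 100 TPM on average, and the 5 genes most like PLAU. FOSL2, ETS2, SERPINB6, TFPI, the SERPINB cluster and genes overlapping members were named after their values were seen. Alternatives were pseudocounts of 0.1 and 0.5, no limit and a limit of 5 TPM, median-of-ratios and quantile scaling, mitochondrial transcripts left out, no trend, no moderation, the replicate number as a block, each library left out, and, added after seeing the data, protein-coding genes only.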

Additional observations from a re-analysis of the deposited data

How the results depend on the processing

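Under 17 alternative fits, the 6 called members kept their direction and stayed past the threshold in limma, with log2 fold changes of 0.30 to 0.38 for PLAU, -0.35 to -0.27 for PLAUR, 0.19 to 0.28 for SERPINE2, -2.30 to -2.21 for SERPINB2, 0.11 to 0.31 for ANXA2 and 0.15 to 0.23 for PLGRKT. PLAT (0.06 to 0.15) passed in none and was not tested with a limit of 5 TPM. The fits with no trend, no moderation or the replicate block leave every fold change as it was, so only p-values could differ there. Of the 26 called list genes, all kept their sign and 21 were called wherever they were tested. Of the 17 list genes not called, 6 were called in at least 1 alternative. Over the alternatives the list medians ranged from -0.01 to 0.19 for binding proteins, -0.13 to -0.04 for partners, -0.26 to -0.07 for inhibitors, 0.01 to 0.14 for substrates and -0.03 to 0.08 for transcription factors. Leaving out 1 library at a time gave PLAUR per PLAU differences of -0.439 to -0.413, S100A10 per ANXA2 differences of 0.000787 (without KD replicate 3) to 0.0108 (without KD replicate 1), and PLAU share differences of 0.0841 (without NC replicate 1) to 0.170 percentage points. No pairing of the samples by replicate number was shown. Same-numbered libraries had correlations of deviations of -0.0198, 0.0341 and 0.0334, and not every library correlated best with its own number. All correlations between NC and KD libraries lay between -0.0656 and 0.0341, too small to decide whether the numbers pair the samples. With the replicate block, limma called 2638 genes lower and 1369 higher, and the 6 members stayed called, with log2 fold changes of -2.28 for SERPINB2 (limma adjusted p = 8.69e-05), 0.31 for PLAU and -0.34 for PLAUR. The blocked differences were 0.131 percentage points for the PLAU share, -0.427 for PLAUR per PLAU and 0.00483 for S100A10 per ANXA2. In this balanced design the block cannot change such differences or the fold changes, so their equality with the unblocked values is no check. Protein levels and enzyme activity were not measured by these libraries.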
